A study of Mus musculus with 2 samples.

Results

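Creatine kinase and adenylate kinase genes of the remote left ventricle were examined in mice with and without NRK-2, the muscle-enriched nicotinamide riboside kinase encoded by Nmrk2, after a coronary ligation. The 9 genes were taken by symbol: the creatine kinases Ckm, Ckmt2 and Ckb, the creatine transporter Slc6a8, the creatine synthesis enzymes Gatm and Gamt, and the adenylate kinases Ak1, Ak3 and Ak4. They are 9 of 24542 gene symbols in the deposited table, and all 9 were among the 14466 genes that passed the filter on low counts.

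Creatine kinase moves a phosphate group between ATP and creatine. In heart muscle the mitochondrial enzyme makes phosphocreatine where ATP is produced, and the cytosolic enzyme uses it to restore ATP at the myofibrils and ion pumps. Adenylate kinases exchange phosphate between adenine nucleotides, so that ADP gives ATP and AMP, and AMP in turn activates the AMP-activated protein kinase. Heart cells take up most of their creatine from the blood, and in failing hearts lower creatine kinase activity with a larger part of the B isoform is a well-known observation.

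Male C57BL/6 mice of both genotypes, NRK-2 KO and littermate Control, had the proximal left anterior descending coronary artery ligated permanently, and tissue was taken at 7 days. RNA came from remote left ventricle, with scar and border area left out, and no unligated group is among these samples, so every value is from an infarcted heart. The labels list 2 samples, 1 per genotype, while the table holds 3 libraries for each. That these came from separate animals is not stated, so p-values measure the spread between libraries, which may be technical. The labels give neither the age of the mice nor the way the knockout was made.

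The libraries held 22377348 to 33086384 reads. Levels are given as CPM, read counts per 1000000 reads of a library after scaling by the trimmed mean of M-values (TMM). The targeted gene Nmrk2 had 308, 270 and 118 reads in control libraries (4.78 to 15.1 CPM) and 808, 9 and 0 reads in KO libraries (27.9, 0.252 and 0 CPM). The library labelled KO 1 thus held more Nmrk2 than any control library and goes against its label. Values without it are given below for the 9 genes, the shares and ratios and the lists of related genes; levels, transcript-level fits and pattern distances include it. For Nmrk2 the difference between genotypes did not pass the test (log2 fold change -0.23, SE 1.7, adjusted p = 0.952, edgeR).

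All 12 cardiomyocyte markers were detected in every library. All 12 were lower in the KO mean, with 0 passing the test, and their summed level was 55470 to 94740 CPM in control and 30300 to 50770 CPM in KO libraries. Singly, Actc1, Tnnc1, Mybpc3, Ryr2 and Actn2 overlapped between genotypes, and the other markers did not. Mybpc3, for example, was at 2771 to 7051 CPM in control and 4155 to 5549 CPM in KO libraries. All 8 fibroblast markers were higher, with 1 passing the test, and summed to 6543 to 18010 CPM in control and 28640 to 39740 CPM in KO libraries. Markers of other tissue differed between single libraries. Atrial markers summed to 434, 357 and 467 CPM in control 1, control 2 and the library labelled KO 1 and to at most 7.75 CPM in the other libraries, with Bmp10 at 0. Lung epithelium markers reached 405 CPM in KO 2, against 15.1 CPM in KO 3 and under 1 CPM elsewhere, and adipocyte markers ranged from 2.08 CPM in KO 3 to 797 CPM in control 3. In such bulk tissue, fewer cells of a type and less RNA per cell cannot be told apart.

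Sequence before the start sites is shown for the genes and transcript variants on which the comparison of isoforms turns. Each run is the 250 bases before a RefSeq start on GRCm38.p6 (the mm10 assembly), 5′ to 3′ on the gene's strand. Capitals mark every match, on either strand, to 5 letter patterns. These were the E-box CANNTG, its form CAGCTG, the GC box GGGCGG, the TATA box TATAAA, and the estrogen-related receptor element TCAAGGTCA. CAGCTG, itself an E-box, is called the muscle E-box here. The windows are Ckm at chr7:19410844-19411093 (plus strand), Ckmt2 at chr13:91876886-91877135 (minus), Ckb at chr12:111672339-111672588 (minus), Ak1 variant 3 at chr2:32625187-32625436 (plus) and Ak1 variant 4 at chr2:32628140-32628389 (plus).
Ckm: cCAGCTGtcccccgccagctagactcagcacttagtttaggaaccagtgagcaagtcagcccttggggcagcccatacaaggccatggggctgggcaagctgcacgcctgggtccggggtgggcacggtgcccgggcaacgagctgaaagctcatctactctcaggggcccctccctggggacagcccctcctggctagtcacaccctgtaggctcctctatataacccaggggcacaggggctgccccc
Ckmt2: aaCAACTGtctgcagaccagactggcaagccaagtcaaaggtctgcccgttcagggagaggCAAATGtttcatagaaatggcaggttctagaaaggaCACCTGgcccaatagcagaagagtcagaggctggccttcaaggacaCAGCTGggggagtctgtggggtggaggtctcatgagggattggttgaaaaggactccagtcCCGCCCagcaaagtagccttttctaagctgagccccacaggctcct
Ckb: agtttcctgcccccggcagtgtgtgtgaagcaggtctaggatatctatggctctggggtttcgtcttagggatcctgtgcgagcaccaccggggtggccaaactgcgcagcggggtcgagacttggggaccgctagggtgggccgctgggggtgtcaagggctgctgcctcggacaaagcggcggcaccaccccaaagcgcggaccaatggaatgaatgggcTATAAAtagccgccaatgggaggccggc
Ak1 variant 3: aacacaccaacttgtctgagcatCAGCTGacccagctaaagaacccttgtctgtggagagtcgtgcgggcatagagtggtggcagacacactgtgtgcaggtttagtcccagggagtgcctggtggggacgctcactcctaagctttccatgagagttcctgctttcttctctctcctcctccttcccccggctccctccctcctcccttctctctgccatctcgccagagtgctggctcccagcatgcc
Ak1 variant 4: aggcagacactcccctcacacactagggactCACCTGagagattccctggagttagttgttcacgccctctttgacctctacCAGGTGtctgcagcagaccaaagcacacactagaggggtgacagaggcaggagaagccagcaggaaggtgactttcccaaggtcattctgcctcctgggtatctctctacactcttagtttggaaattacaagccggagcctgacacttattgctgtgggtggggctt

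The windows of the muscle isoforms and the B isoform differed in their exact matches to these patterns. The muscle E-box CAGCTG lay in the windows of Ckm (first base at -249 from the start), Ckmt2 (-107) and Ak1 variant 3 (-227), and not in those of Ckb or Ak1 variant 4. Ckmt2 held 4 E-boxes in all, at -248, -189, -153 and -107, and a GC box at -46. Ckb held TATAAA at -28 and no E-box. Ak1 variant 4 held 2 E-boxes of other letters, CACCTG at -219 and CAGGTG at -168. Over the 14 windows of the 8 genes with an entry (Slc6a8 has none), an E-box was found in 8, CAGCTG in 4, the GC box in 4, TATAAA in 1 and the receptor element in 0. Among 32851 windows of the same length across the genome these patterns were in 66.2%, 13.0%, 32.7%, 12.4% and 0.387%. Only exact letters were searched, so near forms, such as TATATAA in the Ckm window, are not marked. Each match is a description of letters only.

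None of the 9 genes passed the test between genotypes at an adjusted p under 0.05 (edgeR's quasi-likelihood test, Benjamini-Hochberg over all 14466 genes), where 535 genes, 3.70%, did. Of all genes tested, 378 (2.61%) rose and 157 (1.09%) fell in KO libraries. Without the adjustment, 5 of the 9 genes had a p under 0.05, as did 25.9% of all genes. The CPM values of the genotypes did not overlap for Ckm, Ckmt2, Ckb, Gamt and Ak1, 5 of the 9, and did not overlap for 30.9% of all genes. Gamt was apart only narrowly, at 4.56 CPM in control 1 and 4.562 CPM in KO 3. Per kilobase of transcript its values overlapped, at 4.571 in control 1 and 4.562 in KO 3. In direction, 4 genes were higher (Ckb, Slc6a8, Gatm and Gamt) and 5 lower (Ckm, Ckmt2, Ak1, Ak3 and Ak4) in KO libraries. Their median log2 fold change was -0.33, beside 0.01 over all genes tested.

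**Figure D1:**
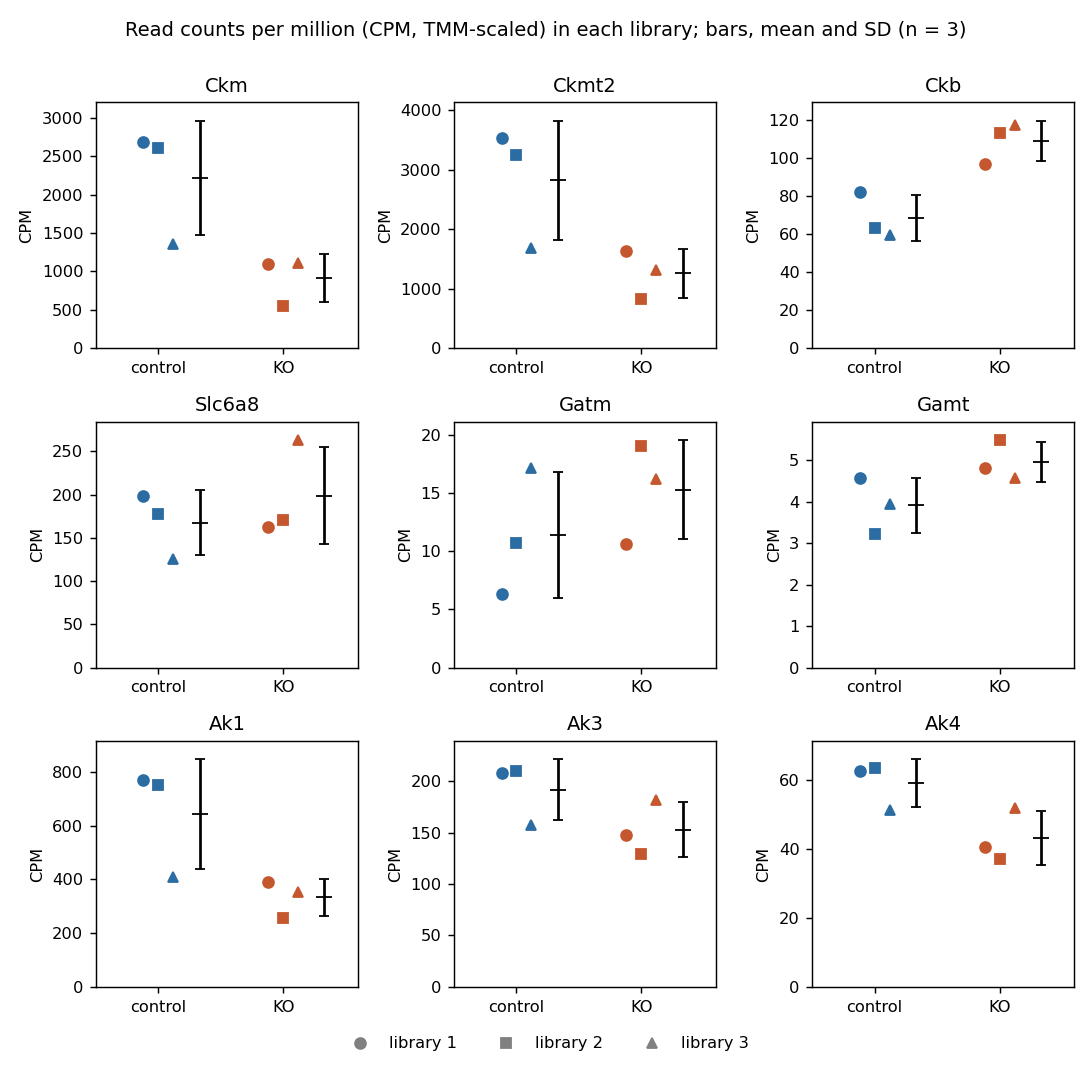
CPM of each of the 9 genes (vertical axes, each from 0 and differing in scale) in the 3 control (blue) and 3 KO (orange) libraries; bars are the mean and SD. Ckm, Ckmt2 and Ak1 are lower and Ckb is higher in all 3 KO libraries than in any control library, and the Slc6a8, Gatm, Ak3 and Ak4 values overlap.

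Ckm and Ckmt2, the isoforms of the contractile machinery and the mitochondria, were the most abundant of the 9 per transcript length and had the most negative fold changes. Ckm, the muscle cytosolic creatine kinase (Entrez gene 12715, chr7:19411094-19421583), was at 2686, 2608 and 1353 CPM in control and at 1092, 549.9 and 1105 CPM in KO libraries. Control 3 lay closer to the KO libraries than to the other controls, but the genotypes did not overlap. The mean was 2216 ± 748 CPM in control and 916 ± 317 CPM in KO (SD, n = 3 each), 2.42 times higher in control. The log2 fold change was -1.27 with an SE of 0.37, and it did not pass the test in edgeR (adjusted p = 0.0970).

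Ckmt2, the sarcomeric mitochondrial creatine kinase (76722, chr13:91853387-91876885), was at 3534, 3252 and 1676 CPM in control and at 1632, 821 and 1316 CPM in KO libraries. The order of the libraries within each genotype followed that of Ckm except that the library labelled KO 1 was the highest KO library, close under control 3. The mean was 2821 ± 1001 CPM in control and 1257 ± 409 CPM in KO (SD, n = 3 each). The log2 fold change was -1.17 with an SE of 0.37 (adjusted p = 0.111, edgeR).

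Ckb, the brain-type cytosolic creatine kinase that many non-muscle cells and the fetal heart also make, went the other way. This gene (12709, chr12:111669355-111672338) was at 82.2, 63.0 and 59.6 CPM in control and at 96.9, 113 and 117 CPM in KO libraries. All KO values lay above all control values, and the spread within each genotype was small beside the gap of the means, 68.3 ± 12.2 CPM against 109.0 ± 10.7 CPM (SD, n = 3 each). The log2 fold change was 0.67 with an SE of 0.16, the lowest adjusted p of the 9 genes but not past the threshold (adjusted p = 0.0664, edgeR).

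The calls on these genes depended on the tool and on 1 library. Without control 3, edgeR called Ckm, Ckmt2, Ckb and Ak1 (log2 fold changes -1.53, -1.43, 0.59 and -1.19, adjusted p = 0.0226, 0.0230, 0.0405 and 0.0177), while the share of all genes called went to 24.6%. DESeq2 on all 6 libraries called the same 4 genes (-1.28, -1.18, 0.66 and -0.96, adjusted p = 0.00333, 0.00667, 0.00394 and 0.00882) and 15.5% of all genes. Without the library labelled KO 1 the log2 fold changes were -1.42 for Ckm, -1.40 for Ckmt2, 0.75 for Ckb and -1.08 for Ak1. In that fit 0 of the 9 genes were called, beside 88 genes in all.

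The makeup of the creatine kinase transcripts was compared as shares of reads per transcript length, which do not depend on scaling between libraries. Ckb made up 2.85%, 2.26% and 4.05% of cytosolic creatine kinase transcripts (Ckm plus Ckb) in control and 7.82%, 16.4% and 9.21% in KO libraries. Every KO share was above every control share, with KO 2 the highest, and the means were 3.05 ± 0.910% and 11.2 ± 4.62% (SD, n = 3 each). The difference of 8.10 percentage points had an exact permutation p = 0.10 (two-sided), the smallest that 3 against 3 libraries can give, or 0.25 after Benjamini-Hochberg adjustment over the 5 shares and ratios tested. Counting error was small beside this, since the 95% Wilson intervals of the read shares were at most 0.479 points wide on either side. Without the library labelled KO 1 the difference was 9.77 points, and without KO 2, which had the highest share and the lung markers, it was 5.46 points. The reads carry no molecular identifiers in the deposited table, so such intervals cover counting error only.

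The balance between mitochondrial and cytosolic transcripts was close to the same in both genotypes. Ckmt2 made up 54.9%, 53.7% and 53.1% of the summed Ckm, Ckb and Ckmt2 transcripts in control and 56.7%, 54.3% and 50.7% in KO libraries. The means were 53.9 ± 0.914% and 53.9 ± 3.03% (SD, n = 3 each; exact permutation p = 1.0, two-sided, also after adjustment), and the KO libraries spread more widely. The difference was -1.39 points without the library labelled KO 1. Summed over Ckm, Ckmt2 and Ckb, the level was 4332, 4074 and 2125 CPM per kilobase of transcript in control and 1936, 1018 and 1746 in KO libraries, so no KO library reached the lowest control library. The means were 3510 ± 1207 and 1567 ± 485 (SD, n = 3 each), with a KO mean of 1382 without the library labelled KO 1. Ckmt1, the other mitochondrial creatine kinase, is not in these sums and was at 0.651 ± 0.665 CPM in control and 1.41 ± 0.839 CPM in KO (SD, n = 3 each).

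**Figure D2:**
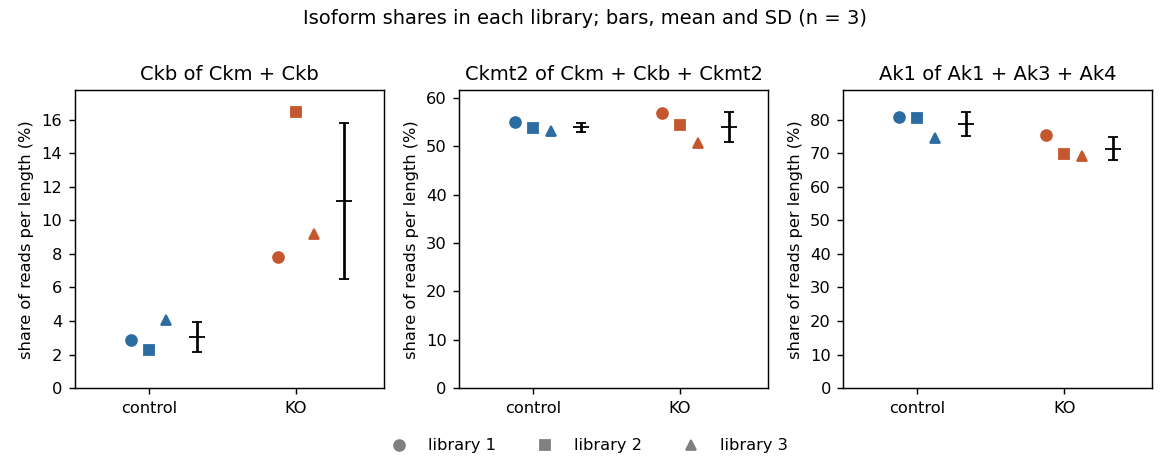
Share of transcripts (percent of reads per transcript length, axes from 0) taken by Ckb among Ckm plus Ckb, by Ckmt2 among Ckm, Ckb and Ckmt2 and by Ak1 among the adenylate kinases, in each library; bars are the mean and SD of 3 libraries. The Ckb share is 2.26% to 4.05% in control and 7.82% to 16.4% in KO libraries, the Ckmt2 shares lie between 50.7% and 56.7%, and the Ak1 shares of the genotypes overlap.

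For the creatine supply, the transporter and the synthesis enzymes had higher KO means, and none passed the test. Slc6a8, which carries creatine into the cell (102857, chrX:73673133-73682500), was at 199, 178 and 126 CPM in control and at 163, 170.2 and 263 CPM in KO libraries. Only KO 3 lay above the control range, and the means of 167 ± 37.5 CPM and 199 ± 55.9 CPM (SD, n = 3 each) differed by less than the spread between libraries. The log2 fold change was 0.25 with an SE of 0.25 (adjusted p = 0.569, edgeR), and without KO 3 it was -0.02. Nearly all Slc6a8 reads, at least 99.8% in each library, were counted on transcript variant 2.

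Gatm and Gamt carry out the successive steps of creatine synthesis, the first forming guanidinoacetate and the second methylating it, and both are mainly known from kidney, liver and pancreas. Gatm (67092, chr2:122594473-122611277) was at 6.33, 10.7 and 17.2 CPM in control and at 10.6, 19.0 and 16.2 CPM in KO libraries, with a wide overlap. Gamt (14431, chr10:80258151-80261012) was the least abundant of the 9 per transcript length. Its levels were 4.56, 3.23 and 3.93 CPM in control and 4.80, 5.48 and 4.56 CPM in KO libraries. Its highest control and lowest KO values were nearly equal, on 93 and 125 reads. The log2 fold changes were 0.42 (SE 0.38, adjusted p = 0.527) for Gatm and 0.34 (SE 0.25, adjusted p = 0.436) for Gamt in edgeR. Leaving out 1 library moved Gatm from 0.13 (without control 1) and 0.24 (without KO 2) to 0.84 (without control 3), and Gamt was at 0.22 without control 2. The log2 ratio of Gatm to Gamt per length ranged from -0.77 to 0.87 in control and from -0.11 to 0.59 in KO libraries (difference of means 0.15, exact permutation p = 0.80, two-sided, adjusted 1.0). Gamt lies 937 kb from Nmrk2 on chromosome 10. Without the library labelled KO 1 the log2 fold changes were 0.37 for Slc6a8, 0.63 for Gatm and 0.36 for Gamt, and the Gatm to Gamt difference was 0.37.

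All 3 adenylate kinases had lower KO means. Ak1, the cytosolic form of heart and skeletal muscle (11636, chr2:32621758-32635058), was at 769, 753 and 409 CPM in control and at 391, 257 and 353 CPM in KO libraries. As for the muscle creatine kinases, control 3 was the lowest control and KO 2 the lowest KO library, and the genotypes did not overlap. The means were 644 ± 204 CPM and 333 ± 69.2 CPM (SD, n = 3 each), with a log2 fold change of -0.95, an SE of 0.29 and an adjusted p of 0.101 (edgeR).

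Ak3 and Ak4 sit in the mitochondrial matrix, where Ak3 uses GTP to phosphorylate AMP and Ak4 is a related protein with little enzyme activity of its own. Ak3 (56248, chr19:29020832-29047902) was at 208, 209.6 and 157 CPM in control and at 148, 129 and 182 CPM in KO libraries. Ak4 (11639, chr4:101419289-101467771) was at 62.6, 63.5 and 51.2 CPM in control and at 40.6, 37.1 and 52.0 CPM in KO libraries. For both genes KO 3 reached above control 3, so the genotypes overlapped. The log2 fold changes were -0.33 (SE 0.18, adjusted p = 0.303) for Ak3 and -0.45 (SE 0.16, adjusted p = 0.146) for Ak4 in edgeR, and -0.30 and -0.41 without the library labelled KO 1. The span of Ak3, introns included, shares 5850 bases with that of Cdc37l1 on the opposite strand. Cdc37l1 itself was at 155 to 177 CPM in control and 91.5 to 130 CPM in KO libraries. How much of the shared span is exon in both genes was not examined. The libraries were stranded, but no source says whether reads were counted by strand. Reads of the pair therefore cannot be told apart in any shared exon. Antisense genes also overlap Ckm, Ckmt2 and Ak3; those of Ckm and Ak3 were at no more than 0.433 CPM in any library, and 1700119I11Rik, which overlaps Ckmt2, was not analysed here.

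Ak1 took 80.9%, 80.4% and 74.6% of adenylate kinase transcripts (Ak1, Ak3 and Ak4, per length) in control and 75.4%, 69.6% and 69.1% in KO libraries. The library labelled KO 1 lay above control 3, and the difference of the means was -7.27 percentage points (exact permutation p = 0.20, two-sided, adjusted 0.333). Within the matrix pair the values hardly moved. The log2 ratio of Ak4 to Ak3 was -2.59, -2.59 and -2.50 in control and -2.70, -2.67 and -2.67 in KO libraries, a difference of -0.12 with no overlap (exact permutation p = 0.10, the smallest possible, two-sided, adjusted 0.25). These differences were -9.28 points and -0.11 without the library labelled KO 1. Transcripts of Ak4 are not described one by one, since the starts of 3 of its 4 transcripts lie close together and each of those is listed at 0 reads in at least 1 library.

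The 4 RefSeq transcripts of Ak1 differ in their first exon and start site. In GENCODE M21 variants 2, 3 and 4 share a start codon at chr2:32628482, and variant 1 has its own at 32629562. The first exon of variant 4 is only 99 bases long, in a transcript of 2026 bases, and it holds the shared start codon. No source says how reads shared by the variants were divided, so these values are less certain than the gene's sum, and the shift in variant 4 was picked out after its values were seen. It therefore has no test as a share. Variant 3 (start 32625437) took 94.8%, 95.3% and 94.4% of Ak1 reads in control and 87.8%, 84.5% and 90.0% in KO libraries. Variant 4, whose start at 32628390 lies further inside the gene, took 1.38%, 1.20% and 3.32% in control and 8.61%, 8.81% and 6.02% in KO libraries. The 95% Wilson intervals were 2.99% to 3.69% for control 3 and 5.56% to 6.51% for KO 3, and they cover counting error only, not the division of reads between variants. The means of the variant 4 share differed by 5.85 points, or 5.45 without the library labelled KO 1.

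In CPM the means of Ak1 variants 3 and 4 differed between genotypes in opposite directions. Variant 4 was at 10.6, 9.05 and 13.6 CPM in control and at 33.7, 22.6 and 21.2 CPM in KO libraries, on 188 to 335 and 582 to 975 reads. Its log2 fold change in a fit of single transcripts was 1.23 (SE 0.26, adjusted p = 0.124, edgeR). Variant 3 was at 729, 718 and 386 CPM in control and at 343, 217 and 317 CPM in KO libraries (log2 fold change -1.05, adjusted p = 0.192). Neither passed the test. The window before variant 3 printed above holds CAGCTG, and that before variant 4 holds E-boxes of other letters, CACCTG and CAGGTG. The window before variant 2, not printed, also holds CAGCTG, at -177. That variant's mean share was 0.833% in control and 1.22% in KO libraries. Variants 2 and 1 took at most 1.47% and 5.67% of Ak1 reads in any library.

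**Figure D3:**
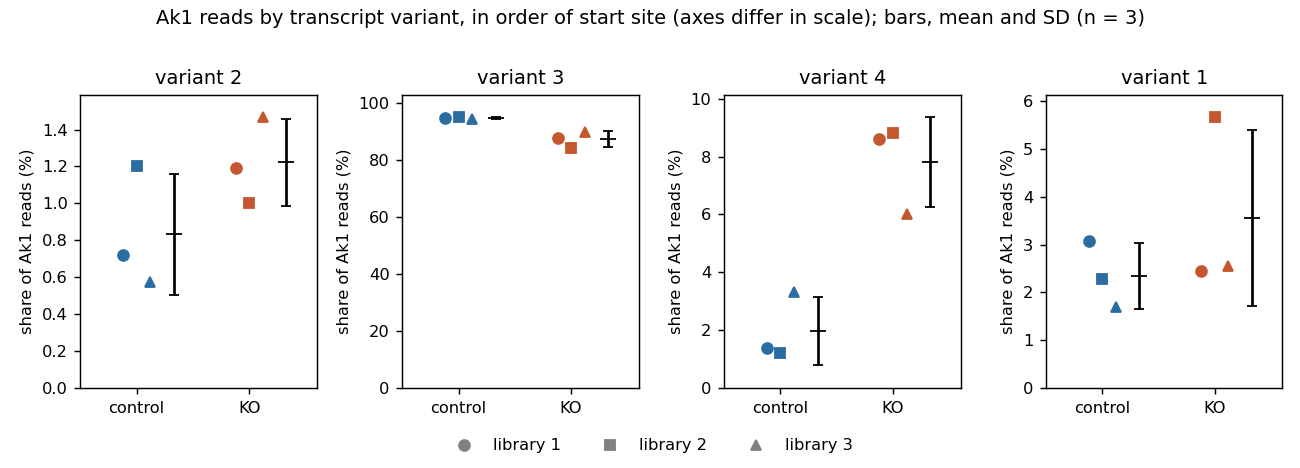
Percent of Ak1 reads counted on each RefSeq transcript variant (vertical axes from 0, differing in scale) in each library, in order of start site along the gene; bars are the mean and SD of 3 libraries. The variant 4 share is 1.20% to 3.32% in control and 6.02% to 8.81% in KO libraries, and the variant 3 share is lower in all KO libraries.

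Per transcript length, which allows levels of different genes to be compared, Ckmt2 and Ckm led in both genotypes. The control means in CPM per kilobase of transcript were 1898 ± 674 for Ckmt2, 1566 ± 529 for Ckm, 312 ± 98.5 for Ak1, 69.6 ± 10.8 for Ak3, 46.2 ± 8.23 for Ckb, 42.2 ± 9.45 for Slc6a8, 11.8 ± 1.44 for Ak4, 4.84 ± 2.31 for Gatm and 3.94 ± 0.654 for Gamt (SD, n = 3). The neighbours Ckmt2 and Ckm, Ckb and Slc6a8, and Gatm and Gamt overlapped in their control ranges. In KO libraries the order was the same except that Ckb, at 73.7 ± 7.23, stood before Ak3 at 55.6 ± 9.68. Overlapping neighbours there were Ckmt2 and Ckm, Ckb and Ak3, Ak3 and Slc6a8, Ak4 and Gatm, and Gatm and Gamt.

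Across the 6 libraries, some of the genes had patterns close to each other. The root mean square difference of log2(CPM + 1), centred on each gene's mean, was smallest for Ak3 and Ak4 (0.0743), Ckm and Ckmt2 (0.1295) and Ckmt2 and Ak1 (0.170), and largest for Ckm and Gatm (1.22). Among 9563 other genes averaging 10 CPM or more, the nearest were Eno3 (0.035), Myl3 (0.0732) and Tnni3k (0.0778) for Ckm, and Atp5g1 (0.0493), Myadml2 (0.0619) and Hfe2 (0.0649) for Ckmt2. Eno3 is the muscle enolase of glycolysis and Myl3 a ventricular myosin light chain, itself one of the cardiomyocyte markers. For Ak1 they were Rangrf (0.0290), Ndufb2 (0.0345) and Dsg2 (0.0359), for Ak3 Tsc2 (0.0308), Vps9d1 (0.0325) and Dhx35 (0.0328), and for Ak4 Atad1 (0.0344), Zfp606 (0.0417) and Aktip (0.0543).

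The genes with higher KO means had other neighbours. For Ckb they were Tgm2 (0.0752), Plp2 (0.0806) and Aplnr (0.0891), for Slc6a8 Mapre3 (0.0410), Plekha6 (0.0701) and Tmem184c (0.0902), and for Gamt Gnai2 (0.0435), Epha2 (0.0526) and Nme1 (0.0592). For Gatm they were Itih5 (0.122), Pdgfra (0.128) and Arhgap17 (0.142), of which Pdgfra, a growth factor receptor, is one of the fibroblast markers. These distances describe 6 libraries that share the same differences in cell makeup and scaling.

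**Figure D4:**
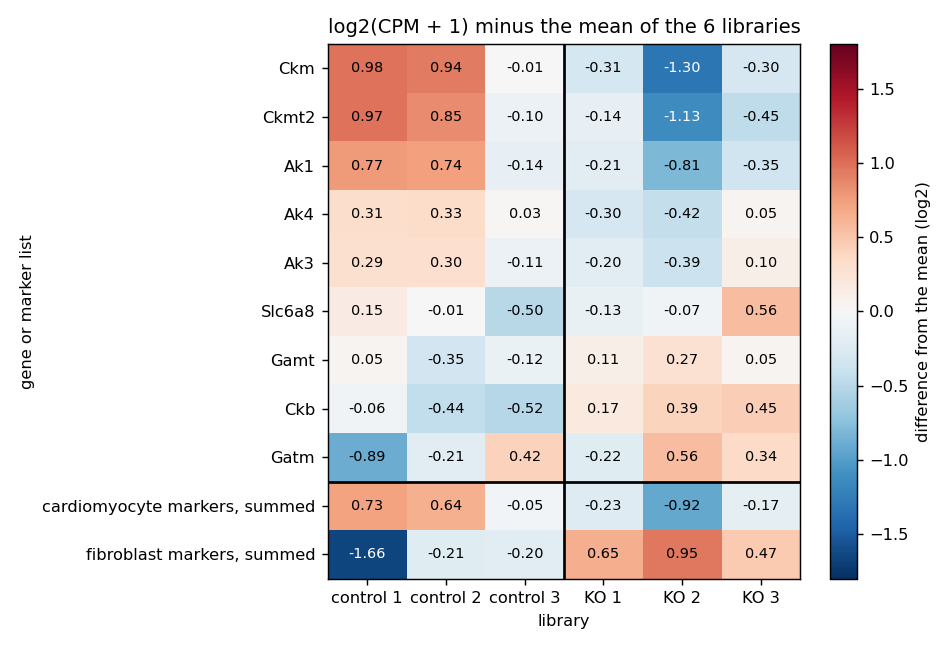
log2(CPM + 1) of each gene, and of the summed cardiomyocyte and fibroblast markers, minus its mean over the 6 libraries (colour and printed value); columns are libraries. Control 1 and control 2 are high and KO 2 is low for Ckm, Ckmt2, Ak1 and the cardiomyocyte markers, while the fibroblast markers run from -1.66 in control 1 to 0.95 in KO 2.

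The cardiomyocyte marker sum moved with the lower genes, so each gene was also expressed per summed cardiomyocyte marker, an alternative added after the data were seen. The marker sum itself differed by -0.96 on the log2 scale (KO minus control, per length), so this scale moves the difference of every gene up by that same amount and a change of sign says nothing particular to a gene. On it the KO minus control log2 difference was -0.32 for Ckm (no overlap, exact permutation p = 0.10), -0.19 for Ckmt2 (p = 0.20, exact) and 0.04 for Ak1 (p = 0.80, exact), all two-sided. Ckm had lower values in every KO library, while the Ckmt2 and Ak1 values overlapped. Ak3 was at 0.63, Ak4 at 0.51, Ckb at 1.64, Slc6a8 at 1.20, Gamt at 1.31 and Gatm at 1.45. Slc6a8 values, which overlapped in CPM, did not overlap here, where the denominator was lower in KO libraries. The differences were -0.37 for Ckm, -0.30 for Ckmt2 and 0.03 for Ak1 without the library labelled KO 1.

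Markers of other cells that make these genes are given beside them. Skeletal muscle, rich in Ckm and Ak1, had Myh4 at 0 and Myh1, Myh2, Mylpf and Tnnc2 under 1 CPM in every library. Tnnt3 was at 0.0981 to 0.722 CPM in control and 5.43 to 10.5 CPM in KO libraries, and Tnni2 at 0.578 to 0.834 and 1.14 to 1.90 CPM. Of this list of 8, 3 genes were tested, all 3 with higher KO means and 1, Tnnt3, passing the test. The list's sum, 162 to 747 CPM in control and 567 to 1166 CPM in KO libraries, was nearly all Acta1, which heart muscle also makes. For Ckb, neuron and glia markers summed to 10.1 to 13.6 CPM in control and 9.85 to 17.2 CPM in KO libraries, smooth muscle markers to 221 to 478 and 241 to 448 CPM, endothelial markers to 959 to 1303 and 962 to 1261 CPM, and macrophage markers to 588 to 1800 and 1315 to 2147 CPM. These sums overlapped between genotypes, while the fibroblast sum was higher in every KO library. That sum was mostly collagen, with Col3a1 at 2805 to 9317 CPM in control and 11770 to 17170 CPM in KO libraries. Of the fibroblast markers, Dcn (1165 to 1752 and 1324 to 1782 CPM) and Pdgfra (121 to 261 and 179 to 256 CPM) overlapped, and the others did not. In the macrophage list Adgre1 did not overlap (50.9 to 118 and 174 to 203 CPM), while its other markers did. The part of the fibroblast markers in the Ckb and Gatm values was not tested.

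**Figure D5:**
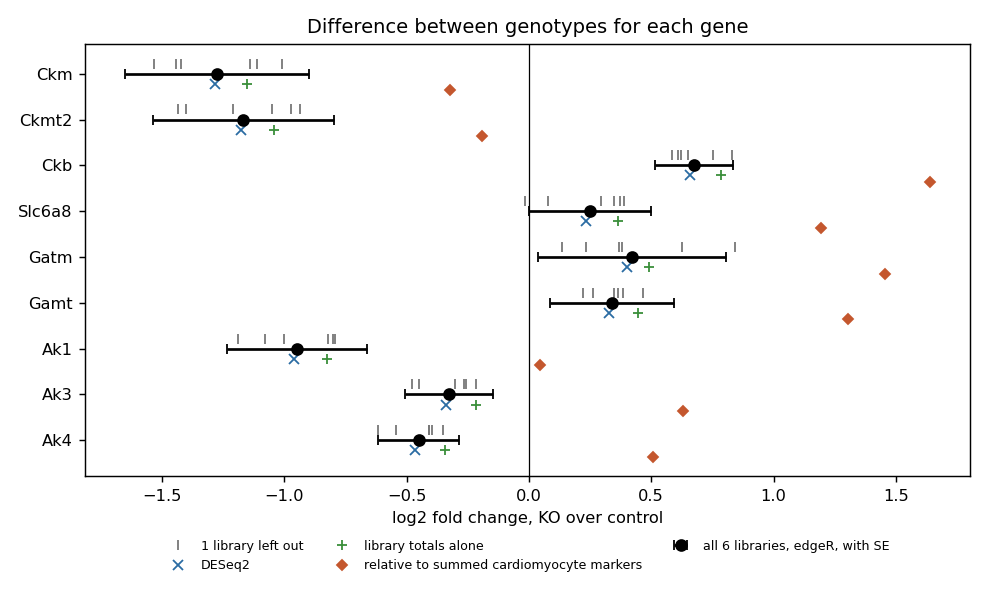
log2 fold change of each gene, KO over control (horizontal axis): black points with SE are from edgeR on all 6 libraries, grey ticks leave out 1 library each, and crosses, plus signs and diamonds are DESeq2, scaling by library totals alone and levels relative to the summed cardiomyocyte markers. Ckm, Ckmt2, Ckb, Gatm and Gamt keep their side of 0 throughout. Ak1, Ak3 and Ak4 lie on the other side relative to those markers, a scale that shifts every gene by 0.96. Slc6a8 falls just below 0 when KO 3 is left out.

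Other genes of energy transfer were taken from 6 lists. The lists hold 46 symbols, with the adenylosuccinate synthases entered under both their older and newer symbols. Of these 40 were tested, 13 were higher and 27 lower in KO libraries, and 0 passed the test in either direction in edgeR. The background was 3.70% of all genes called and 25.9% at an unadjusted p under 0.05, and 18 of the 40 had such a p. Leaving out the library labelled KO 1, 14 were higher and 26 lower, with 0 called, beside 88 called among all genes. The carriers and pores that move ATP, ADP and phosphate across the mitochondrial membranes made up 6 of the tested genes, 4 of them at an unadjusted p under 0.05. All 6 had lower KO means, with a median log2 fold change of -0.77, or -0.83 without the library labelled KO 1. The cardiomyocyte marker sum given above was lower in the same libraries. Slc25a4, the heart and muscle ADP/ATP carrier, was at 6302, 6201 and 3614 CPM in control and at 3006, 1418 and 2571 CPM in KO libraries, a pattern without overlap (log2 fold change -1.20, adjusted p = 0.10, edgeR). The phosphate carrier Slc25a3 had a log2 fold change of -0.94, and the outer membrane pores Vdac1 and Vdac3 had -0.84 and -0.70 (adjusted p = 0.101, 0.103 and 0.104, edgeR). Per summed cardiomyocyte marker the log2 differences were -0.27 for Slc25a4, 0.02 for Slc25a3, 0.13 for Vdac1 and 0.27 for Vdac3. That scale moves every gene up by the same amount, so these signs say nothing particular to a gene.

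Of 11 tested genes of AMP and adenosine turnover, 5 were higher and 6 lower (median -0.08). Adk, which turns adenosine back into AMP, was at 208 ± 48.0 CPM in control and 110.0 ± 22.5 CPM in KO (SD, n = 3 each), a log2 fold change of -0.92 (adjusted p = 0.0751, edgeR). Nt5c1a, a muscle enzyme that splits AMP into adenosine, was at 21.8 ± 7.04 and 9.22 ± 3.54 CPM (-1.24, adjusted p = 0.0926). Nt5e, the cell-surface enzyme for the same reaction, is added after its values were seen: it was at 39.0 ± 8.23 and 47.5 ± 7.40 CPM (0.29, adjusted p = 0.398), so these enzymes differed in sign. Adsl, of purine synthesis, had -0.66 (adjusted p = 0.0932), and the AMP deaminase Ampd2 had 0.46 (adjusted p = 0.204).

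Among the 7 subunits of the AMP-activated protein kinase, 3 were higher and 4 lower (median -0.51). The regulatory β subunits differed in direction: Prkab1 was at 29.2 ± 3.56 CPM in control and 20.4 ± 2.60 CPM in KO, and Prkab2, the muscle form, was at 77.9 ± 10.1 CPM and 133 ± 40.3 CPM (SD, n = 3 each). Their log2 fold changes were -0.51 (adjusted p = 0.0988) and 0.77 (adjusted p = 0.111) in edgeR. The γ subunit Prkag1 had -0.65 (adjusted p = 0.0662) and the muscle catalytic subunit Prkaa2 had -0.66 (adjusted p = 0.159). The values of 3 of the 7 subunits did not overlap between genotypes, beside 30.9% of all genes, and none passed the test. Without the library labelled KO 1 the log2 fold changes were -0.42 for Prkab1, 1.005 for Prkab2 and -0.69 for Prkag1.

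In the remaining lists no gene passed the test either. Of 6 nucleoside diphosphate kinases, which pass phosphate from ATP to other nucleotides, 2 were higher and 4 lower (median -0.40). Nme6 had a log2 fold change of -0.90, Nme2 of -0.52, Nme3 of -0.41 and Nme1 of 0.37 (adjusted p = 0.121, 0.160, 0.438 and 0.126, edgeR). Of 5 genes that supply the methyl group for creatine synthesis, 1 was higher and 4 lower (median -0.19): Mtr had -0.62, Mat2b -0.40 and Mat2a -0.19 (adjusted p = 0.0964, 0.170 and 0.370, edgeR). Of 5 further kinases and carriers of creatine and adenylates, 2 were higher and 3 lower. The creatine carrier Slc16a12 had -0.27 and the nuclear Ak6 -0.23 (adjusted p = 0.373 and 0.438, edgeR).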

How the data were processed

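Total RNA of remote left ventricle was sequenced from stranded total RNA libraries, per the labels' protocols. Per the submitters' processing notes the tools included Bowtie2 and HISAT2, with no version or role, and the genome build was mm10. The authors deposited whole-number read counts and FPKM for 36780 RefSeq transcripts in 6 libraries, per the file headers; no counting program is named. The deposited FPKM followed the counts over length and library total, with a ratio of 0.962 to 0.988 (transcripts with at least 50 reads).

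Counts were summed per symbol, scaled by TMM, filtered with filterByExpr and tested with edgeR 4.0.16 (quasi-likelihood test, Benjamini-Hochberg) in R 4.3.3, with no covariate. The script was tested on simulated data. Shares and ratios were compared with exact permutation tests (scipy 1.17.1). Promoter windows and gene models were RefSeq on GRCm38.p6 and GENCODE M21, and only the 250 bases before each start were searched. Alternatives were DESeq2 1.42.0, limma 3.58.1 on FPKM, scaling by library totals, no filter, single transcripts, a replicate block and leaving out each library. The 9 genes and all lists were chosen with earlier results of these data known. Named genes are the 9, up to 4 per list with the largest absolute log2 fold change at a mean of at least 5 CPM, and the 3 genes most like each of the 9 by pattern, without predicted genes, clone names, pseudogenes or small RNAs. Some genes that this rule names are not reported here.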

Additional observations from a re-analysis of the deposited data

How the results depend on the processing

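Of 117 log2 fold changes of the 9 genes under alternatives with a test that can pass the threshold, 105 kept their direction and side of it, 11 passed it and 1 changed sign. edgeR with library totals alone called 1 of the 9 genes (Ckb), as did limma on log2(FPKM + 1) and on log2(FPKM + 0.1), and DESeq2 called 4; leaving out 1 library gave 0 to 4, with 4 only without control 3. Over all genes, library totals alone called 632 genes, the replicate block 6, single transcripts 91, limma 864 and 807 and DESeq2 2316, against 535. Leaving out 1 library called 3 (without KO 3) to 3628 (without control 3). The genes called split into 378 higher and 157 lower with edgeR, 1072 and 1244 with DESeq2 and 1719 and 1909 without control 3. All genes tested with edgeR split into 7377 higher and 7089 lower. limma on log2(FPKM + 0.1) moved the median of all genes by 0.12. Libraries with the same number deviated from their group means with correlations of 0.31, -0.33 and -0.35. With 3 libraries per group such deviations sum to 0, so these values cannot decide whether the numbers pair the libraries. The replicate block called 0 of the 9 genes. The difference in the Ckmt2 share was -0.0701 percentage points with reads not divided by length and -1.39 to 1.62 without 1 library. The difference in the Gatm to Gamt log2 ratio was -0.33 (without control 1) to 0.49, and the Slc6a8 log2 fold change was -0.0176 (without KO 3) to 0.390 (without control 1). Relative to cardiomyocyte markers Ak1 was at 0.0436, Ak3 at 0.63 and Ak4 at 0.51, a scale on which the exact test cannot pass 0.05; the causes were not tested. No Ak4 to Ak3 ratio from the most abundant Ak4 transcript could be had, since that transcript is listed at 0 in 1 library. Gamt rests on 67 to 196 reads per library.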

Other observations

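Among the listed genes of low level, Ak5 and Ada had the largest log2 fold changes and were picked out after their values were seen. Ak5, an adenylate kinase mainly known from brain, had 0, 15 and 27 reads in control and 82, 129 and 86 reads in KO libraries, or 0 to 1.10 CPM and 2.83 to 3.61 CPM (log2 fold change 2.38, adjusted p = 0.193, edgeR). Ada, the adenosine deaminase, was at 0.735, 3.03 and 3.24 CPM in control and at 5.28, 7.55 and 6.61 CPM in KO libraries (log2 fold change 1.47, adjusted p = 0.145, edgeR). The genotypes did not overlap for either gene and neither passed the test. Without the library labelled KO 1 the log2 fold changes were 2.46 and 1.59 (adjusted p = 0.333 and 0.238, edgeR).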
